A study of Mus musculus with 18 samples.

Results

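Ltb encodes lymphotoxin beta, a membrane-bound ligand of the tumour necrosis factor superfamily. The gene was chosen by its counts of contacts with microRNAs (miRNAs), which stood out in an earlier comparison of knockout and wild-type thymocytes in these same Ago2 immunoprecipitates. Its members are the chimeric reads on its own strand within the RefSeq GRCm38 span, chromosome 17 from 35194507 to 35196305 on the plus strand, 1799 nt long (gene ID 16994). It is 1 of 12914 protein-coding gene spans with at least 1 chimeric read, and it held 1968 of 1190995 reads. No read lay on the opposite strand. Its positions, its miRNAs, its miR-181a to miR-181b ratio and its values in all 4 groups belong to the rule or were known when the gene was chosen. All values of Ltb are therefore given as a description, with no p-value, and fitted differences carry their SE.

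Lymphotoxin beta anchors lymphotoxin alpha at the cell surface, and the complex binds the lymphotoxin beta receptor on stromal and myeloid cells. That receptor works through TRAF adaptors and the kinase NIK on the alternative NF-kB pathway. In the thymus, developing T cells are a source of the ligand, and the signal is known for its part in the maturation of medullary epithelium. The miR-181 family is abundant in immature thymocytes and is known for tuning T cell receptor signalling. A miRNA guides Argonaute 2 (Ago2) to RNA mainly through its seed, the bases near its 5′ end.

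The assay was miR-eCLIP, in which UV light of 254 nm fixes RNA to Ago2 and the miRNA and target fragment of a complex are joined end to end, so that a chimeric read names a miRNA and a position on its target. Total thymocytes came from mice aged 6 weeks and kept under specific-pathogen-free conditions, either C57BL/6 (wild type) or B6.Mirc14tm1.1Ankr, which lacks the Mir181a-1 and Mir181b-1 genes (the knockout). Knockout cells keep the other miR-181 genes, and reads of all 4 mature members were found in them. Each genotype was assayed by an Ago2 immunoprecipitation (IP) and by an IP that was then enriched for miR-181-5p, with 3 libraries in each of the 4 groups. The 6 input samples of the series were not analysed here, so no level of Ltb mRNA stands beside the contacts. Nothing in the labels says that the 3 samples of a group came from separate mice, so p-values measure the spread between these samples, which may be technical.

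The mature miRNAs that Ltb reads turned on are shown first, 5′ to 3′ as in the RefSeq table of GRCm38.p6, with bases 2 to 8, the seed, in capitals. The 4 members of the miR-181 family share a seed and are set side by side because they differ in the bases after it.
miR-181a-5p: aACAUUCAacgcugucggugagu
miR-181b-5p: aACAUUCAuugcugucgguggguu
miR-181c-5p: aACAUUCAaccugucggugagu
miR-181d-5p: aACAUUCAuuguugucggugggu
miR-342-3p: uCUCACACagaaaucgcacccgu
miR-142a-3p: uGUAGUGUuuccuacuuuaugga
miR-6973a-5p: uACGGUGGgagggguggaguug
Counted from 1 at the 5′ end and with the base of miR-181a first, miR-181b differs by A9U, C10U and A21G and is 1 base longer. The member miR-181d differs from miR-181a by A9U, C10U, C12U and A21G. The member miR-181c equals miR-181a with the base at position 11 removed. Thus miR-181a and miR-181c share their first 10 bases, miR-181b and miR-181d share their first 11, and all 4 share the first 8.

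Libraries held between 6832 and 293149 chimeric reads, and the knockout enriched libraries were the shallowest, with 6832 to 19264. Reads of miR-181-5p made up 30.1% to 32.3% of the wild-type Ago2 libraries, 1.32% to 1.44% of the knockout ones, 98.8% to 99.2% of the wild-type enriched libraries and 70.5% to 72.6% of the knockout enriched ones. Reads that repeated the position, strand and miRNA of another line in the same library made up 27.9% to 34.1% of the wild-type enriched libraries and 3.24% to 7.91% of the others. Contacts with 12 thymocyte marker genes summed to between 15460 and 18829 reads per 1000000 chimeric reads (rpm) over the 12 libraries. Such sums count contacts and are not expression levels. Single markers differed widely: in the wild-type Ago2 libraries Satb1 averaged 5836 and Themis 4892 rpm, while Ptcra held 6 reads in the whole series. The 7 markers of thymic epithelium and stroma summed to at most 3.41, and 6 of them, Foxn1 and Psmb11 included, were at 0. The highest sums were 51.9 for 5 B cell markers, 65.8 for 5 macrophage and dendritic cell markers and 146 for 4 globin genes.

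Ltb was contacted in all 12 libraries. In the wild-type Ago2 IP it held 114, 57 and 26 reads, which is 967, 825 and 591 rpm. In the knockout Ago2 IP it held 4, 15 and 2 reads, or 65.8, 222 and 38.4 rpm. All knockout values lay below all wild-type values, which held for 13.7% of the 1542 spans tested, and knockout library 2 stood well above the other two. Group means were 795 ± 190 and 109 ± 98.9 rpm (SD, n = 3 each), 7.29-fold apart.

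After enrichment the wild-type libraries held 614, 599 and 485 Ltb reads, at 2094, 2363 and 2492 rpm. The knockout enriched libraries held 15, 25 and 12 reads, at 1231, 1298 and 1756 rpm. Their means were 2316 ± 203 and 1428 ± 286 rpm (SD, n = 3 each), and 11.0% of 2025 spans tested were lower in the knockout without overlap. From high to low the order of the groups was therefore wild-type enriched, knockout enriched, wild-type Ago2 and knockout Ago2, and no group overlapped its neighbour in that order. In such bulk samples, fewer cells that hold Ltb RNA and fewer contacts per cell cannot be told apart.

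**Figure D1:**
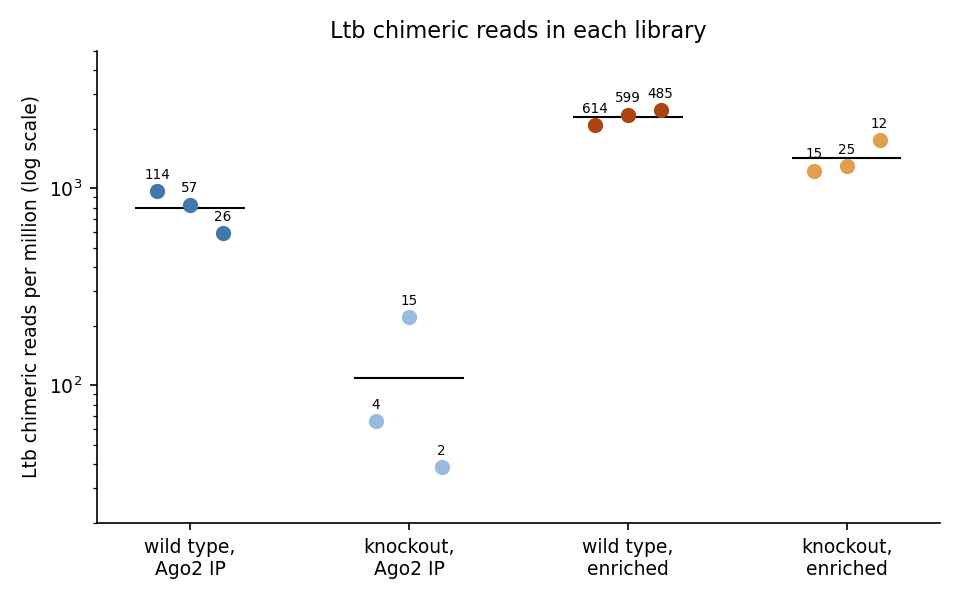
Ltb reads per 1000000 chimeric reads in each library (log axis), by group; points are libraries, the number above each is its count of Ltb reads and the bar is the group mean. Wild-type Ago2 libraries sit between 591 and 967, knockout Ago2 libraries between 38.4 and 222, and the groups do not overlap.

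Most of these contacts fell on a short stretch near the 3′ end of the gene. Joining positions at most 20 nt apart gave 23 clusters in the span, and the main cluster, chromosome 17 from 35196069 to 35196276 on the plus strand, held 1857 of the 1968 reads. It is 208 nt wide, begins 1562 nt after the gene start and stops 29 nt before the gene end. The gene table used holds spans without exons, so whether the cluster lies in coding or untranslated sequence was not analysed here. It took 96.1% ± 0.442 of Ltb reads in the wild-type Ago2 libraries, 95.0% ± 1.21 in the wild-type enriched and 88.2% ± 5.00 in the knockout enriched (SD, n = 3 each). In the knockout Ago2 libraries only 9 of 21 reads lay there (42.9%, 95% Wilson interval 24.5 to 63.5), and the other 12 were scattered along the gene. Counting identical lines once lowered the wild-type enriched share to 83.1%.

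Within the main cluster the reads of the wild-type enriched libraries had 2 summits 11 nt apart. The upstream summit, at 35196157, held 116 reads and the downstream summit, at 35196168, held 118, with 14 reads at 35196161 between them. The summits lie 148 and 137 nt before the gene end. The other groups are shallower, and their highest positions lay near these: 35196155 (13 reads) and 35196168 (12) in the wild-type Ago2 libraries, and 35196169 (5) and 35196155 (3) in the knockout enriched ones. The 16 nt around the downstream summit, from 35196161 to 35196176, held 47.8% ± 0.964 of the main-cluster reads of the wild-type enriched group, while the 15 nt before it held 34.5% ± 3.23 (SD, n = 3). The same windows held 42.7% ± 7.56 and 36.5% ± 3.06 in the wild-type Ago2 libraries, and 54.8% ± 5.01 and 29.5% ± 6.51 in the knockout enriched libraries. Both windows were set after the wild-type enriched profile was seen, so their large share in that group is no separate result. They also held a large share of reads in the wild-type Ago2 and knockout enriched libraries. In the knockout Ago2 libraries the downstream window held 1 and the upstream window 4 of 9 main-cluster reads. Which end of the fragment a 1-nt position marks is not given in the sources used here, so the summits are not placed against a seed match.

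A lower shoulder preceded the summits. Between 36 and 60 nt before the upstream summit lay 8.09% ± 0.690 of Ltb reads in the wild-type enriched libraries, 10.9% ± 5.30 in the wild-type Ago2 and 11.2% ± 2.59 in the knockout enriched ones, a window set after the profile was seen. Every one of those 137, 24 and 6 reads carried a miR-181 member. Over all reads of the same groups the miR-181 share was 98.8% to 99.2%, 30.1% to 32.3% and 70.5% to 72.6%. Away from the 3′ end, the next largest clusters were 25 reads from 35195161 to 35195178 and 22 reads from 35195052 to 35195112. All 25 reads of the former and 21 of the 22 reads of the latter were miR-181 reads, and both clusters were seen in all 3 wild-type enriched libraries. Those libraries, nearly all miR-181 reads by their preparation, gave 23 and 19 of these reads. The wild-type Ago2 libraries gave 0 and 2, so the miRNAs of these clusters are hardly measured without enrichment.

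**Figure D2:**
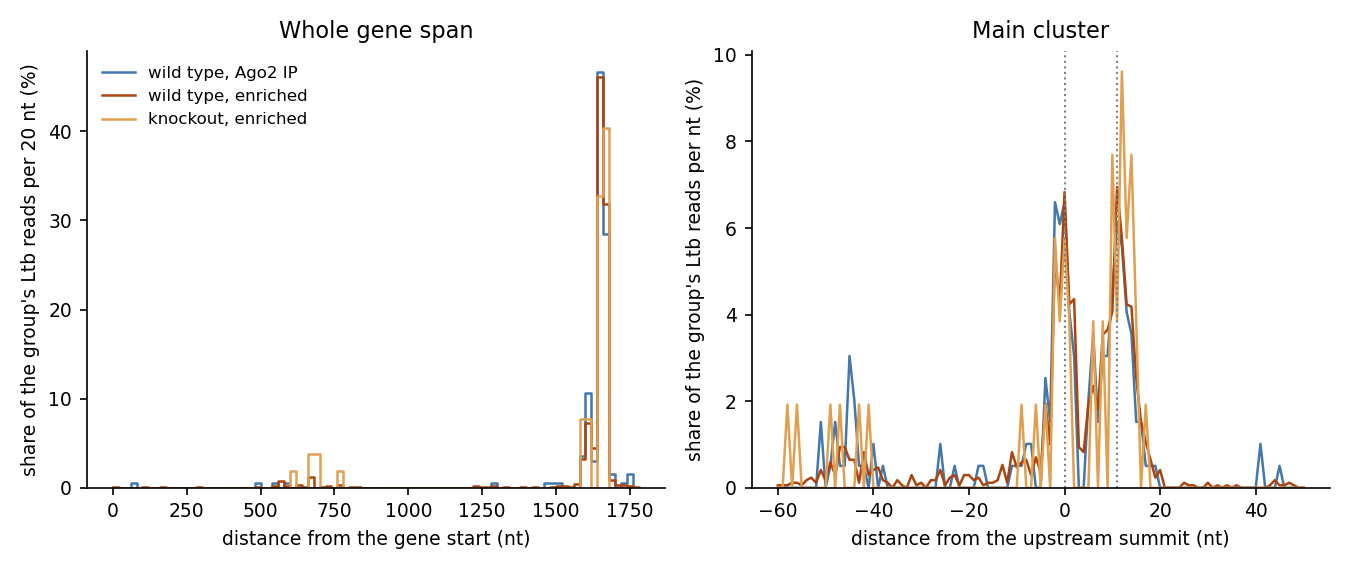
Share of each group's Ltb reads (%) along the gene in 20-nt steps (left, distance from the gene start) and per nt in the main cluster (right, distance from the upstream summit); lines are groups and dotted lines mark the summits of the wild-type enriched group, 11 nt apart. Reads of the wild-type Ago2 and knockout enriched groups gather around the same places, with 189 and 46 reads in the cluster.

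Among the 485 clusters with at least 100 reads in the wild-type enriched libraries, the main Ltb cluster was neither narrow nor broad. A stretch of 14 nt held 50% of its reads, against a median of 19.0 nt over those clusters (percentile 37.1). It stood higher in the number of distinct positions, 117 against a median of 57.0 (percentile 91.8). It also stood higher in repeats, since 79.4% of its reads repeated a position and miRNA against a median of 42.3% (percentile 90.1). Neither value was matched for the number of reads, of which the Ltb cluster held 1613.

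In wild-type thymocytes nearly every Ltb contact was made with miR-181. In the wild-type Ago2 libraries 106 of 114, 53 of 57 and 26 of 26 Ltb reads carried a member of the family, 95.3% ± 4.05 (SD, n = 3), or 90.7% with identical lines counted once. In the knockout Ago2 libraries 1 of 4, 2 of 15 and 0 of 2 did. Pooled, the family had 185 wild-type and 3 knockout reads at Ltb, a ratio per library read of 48.2 (exact 95% counting interval 16.2 to 236). The family's share of all reads was also lower in the knockout. It was 30.1% to 32.3% in the wild-type Ago2 libraries and 1.32% to 1.44% in the knockout ones. The ratio of 48.2 contains that library-wide difference, so it does not by itself set Ltb apart. Ltb reads with any other miRNA were at 41.9 ± 36.7 rpm in wild type and 93.3 ± 85.8 rpm in the knockout (SD, n = 3 each), and the groups overlapped. Knockout library 2 alone held 13 of the 18 other reads, with 10 miRNAs. After enrichment 1696 of 1698 wild-type reads and 52 of 52 knockout reads were miR-181 reads. Over all reads of those libraries the share was 98.8% to 99.2% in wild type and 70.5% to 72.6% in the knockout. For the knockout the 95% Wilson interval of the share at Ltb begins at 93.1%. All intervals here describe counting error alone, because repeats may be copies of a molecule.

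The make-up of the family at Ltb differed between genotypes as it did in the whole libraries. Ltb had 1490 reads of miR-181a, 184 of miR-181b, 16 of miR-181c and 6 of miR-181d after enrichment in wild type. It had 26, 6, 16 and 4 in the knockout. The member miR-181a, which the Mir181a-2 locus still supplies in the knockout, made up 87.9% of family reads at Ltb in wild type and 50% in the knockout, beside 80.7% and 45.6% elsewhere in the same libraries. The member miR-181c, whose gene is intact in both genotypes, made up 0.943% and 30.8% at Ltb, beside 0.625% and 22.2% elsewhere. In rpm of the whole library, miR-181a at Ltb was 2029 ± 151 in wild type and 729 ± 154 in the knockout, and miR-181c was 21.5 ± 12.1 and 412 ± 73.5 (SD, n = 3 each). Neither pair of groups overlapped. The shares of both members elsewhere in these libraries moved in the same directions, so the separation does not by itself set Ltb apart. How many other sites separated in this way was not tested.

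Each member can also be set against its own depth. Per 1000000 reads of the same miRNA, the wild-type enriched libraries gave 2516 Ltb reads for miR-181a (exact Poisson interval 2390 to 2647), 1374 for miR-181b (1183 to 1588), 3484 for miR-181c (1991 to 5657) and 2080 for miR-181d (763 to 4527). The knockout enriched libraries gave 2070 (1352 to 3034), 1127 (413 to 2452), 2613 (1494 to 4244) and 1135 (309 to 2907). With all reads counted, the intervals of the genotypes overlapped for each member, and no difference between genotypes was seen at this depth. With identical lines counted once, miR-181a was at 719 (639 to 807) in wild type and 1905 (1179 to 2912) in the knockout. Those intervals did not overlap, and that count was not matched for depth. The wild-type depths include reads at the hairpins deleted in the knockout. In the wild-type Ago2 libraries the values with all reads counted were 3060 for miR-181a (2611 to 3564) and 1001 for miR-181b (572 to 1625). There miR-181c had 4 reads. The member miR-181d had 0 of 584 reads, where a floor of 3 reads would be 5137 per 1000000 and the exact Poisson interval ends at 6317.

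With all reads counted, miR-181a and miR-181c pooled gave more Ltb reads for their depth than miR-181b and miR-181d pooled. Whether the bases that differ play a part was not tested. In the wild-type enriched libraries miR-181a and miR-181c together gave 2524 per 1000000 of their reads (2398 to 2655), and miR-181b and miR-181d gave 1389 (1199 to 1601). Of those reads, 1490 of 1506 were miR-181a and 184 of 190 were miR-181b, so the pools mostly compare these members. The interval of miR-181d alone, 763 to 4527, took in the 2516 of miR-181a. The pooled values in the wild-type Ago2 libraries were 3101 (2651 to 3606) and 966 (552 to 1568). In the knockout enriched libraries they were 2248 (1620 to 3039) and 1130 (542 to 2078), and the intervals overlapped. By library, the rate of miR-181a lay above that of miR-181b in 3 of 3 enriched libraries of each genotype and in 2 of 3 wild-type Ago2 libraries. Counting identical lines once turned the order in the wild-type enriched libraries, to 719 for miR-181a (639 to 807) and 900 for miR-181b (723 to 1107). It kept the order in the wild-type Ago2 libraries, 1537 against 796, and in the knockout enriched ones, 1905 against 1190. The wild-type enriched libraries held 1490 Ltb reads of miR-181a and 184 of miR-181b, so these counts were not matched for depth. The cause of the turn was not tested.

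**Figure D3:**
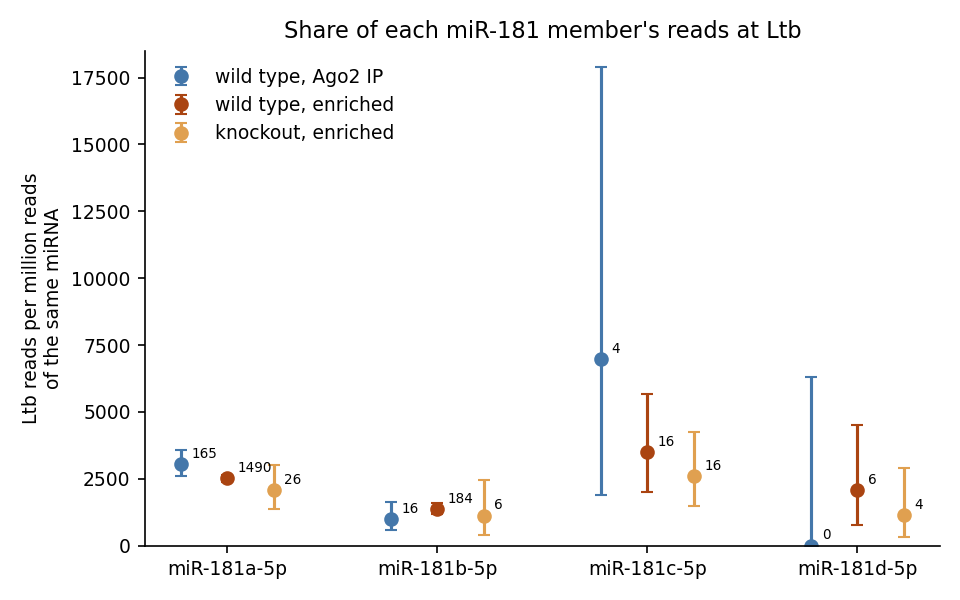
Ltb reads per 1000000 reads of the same miRNA for the 4 miR-181 members, pooled over the 3 libraries of a group; bars are exact 95% Poisson intervals (counting error only) and numbers are Ltb reads. In the wild-type enriched libraries miR-181a lies at 2516 and miR-181b at 1374, while the intervals of miR-181c and miR-181d are wide.

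As a share, miR-181a made up 88.9% ± 1.59 of miR-181a and b reads at Ltb in the wild-type enriched libraries, against 81.3% ± 1.53 over all other reads of those libraries (SD, n = 3). In the wild-type Ago2 libraries the shares were 94.2%, 94.2% and 73.1%, and in the knockout enriched libraries 81.8%, 78.6% and 85.7%, against 77.2% ± 0.403 and 69.9% ± 1.59 elsewhere. Among clusters of some size this was not unusual. Of 467 clusters with at least 100 miR-181a and b reads in the wild-type enriched libraries, the median share was 91.0% (lowest and highest 10% of clusters beyond 71.0% and 96.3%). The main Ltb cluster, at 89.0% (95% Wilson interval 87.4 to 90.4), stood at percentile 40. With identical lines counted once it fell to 73.9% and percentile 22.5.

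**Figure D4:**
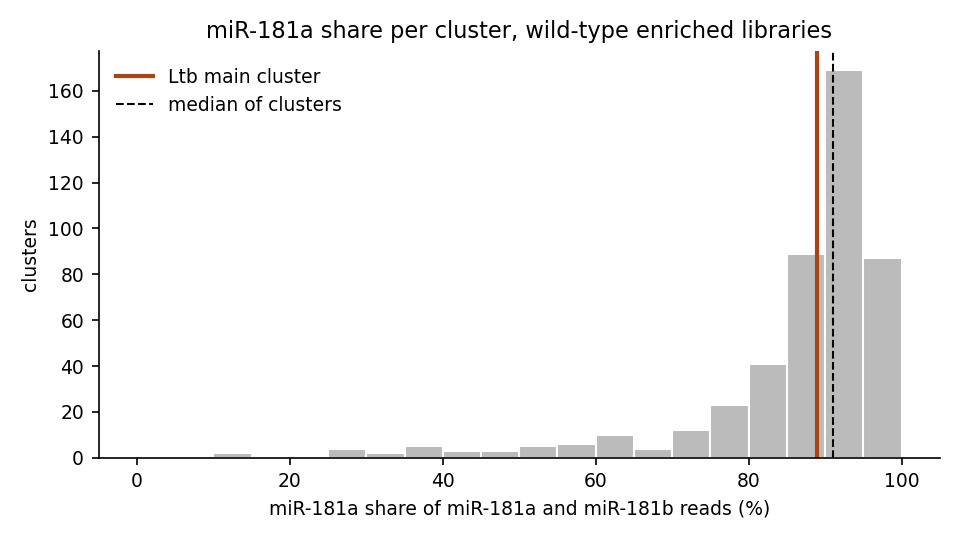
Number of clusters by miR-181a share of miR-181a and miR-181b reads (%), for 467 clusters with at least 100 such reads in the wild-type enriched libraries; the solid line is the main Ltb cluster and the dashed line the median. Ltb, at 89.0%, lies just under the median of 91.0%.

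Outside the miR-181 family, miR-342-3p had the most reads at Ltb, and it met the same stretch. It had 6 reads in the wild-type Ago2 libraries, 3 in the knockout Ago2 libraries and 1 in the wild-type enriched ones, and 9 of these 10 lay in the main cluster, between 35196145 and 35196180. No 2 of those 9 shared both a library and a position. Over the 6 Ago2 libraries, 8 of all 470 miR-342-3p reads (1.70%) were in the main Ltb cluster, more than in any of the other clusters outside hairpins among the 430 with such a read. The next held 6, in Cep295. This ranking was made after the reads were seen. The seeds of miR-342-3p and miR-181 differ. Set against this, miR-142a-3p, the most frequent miRNA of the Ago2 libraries, had 7 Ltb reads there, with 2 in the main cluster, from 135712 reads. Per 1000000 reads of the same miRNA in wild type, miR-342-3p gave 21583 Ltb reads (exact Poisson interval 7920 to 46977) and miR-142a-3p gave 46.8 (9.64 to 137). With so few reads, the level of miR-342-3p contacts was not seen to differ between genotypes.

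The span of Ltb also holds the hairpin gene Mir6973a, on the same strand from 35194972 to 35195049. All 3 reads of miR-6973a-5p in the whole series lay in this hairpin, at 35194995, in 3 different libraries. They were counted among Ltb reads by position, but they lie in the sequence that encodes the miRNA itself, and their part in the totals is 3 of 1968 reads.

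In the enriched libraries the main cluster was 2202 ± 194 rpm in wild type and 1252 ± 184 rpm in the knockout (SD, n = 3 each), without overlap. The difference fitted by edgeR over 805 clusters was -1.0 on the log2 scale (SE 0.26), 2.0-fold lower in the knockout. Of all clusters tested 8.70% were called lower and 7.70% higher, and 23.6% were lower without overlap. The calls were 62 higher and 70 lower. Scaling by library sizes alone gave 75 and 55, and DESeq2 gave 58 and 42. The median cluster stood at -0.38, so Ltb lay at -0.62 against it. Over the gene span the value was -1.04 (SE 0.21), where 2.07% of 2025 spans were called lower and 1.38% higher. Those 42 lower and 28 higher spans became 23 and 52 under library sizes alone, and 18 and 28 in DESeq2. With knockout libraries 2 and 3, which an earlier comparison could not clearly separate, summed as 1 sample, the cluster was at -1.18 (SE 0.31). Leaving out knockout library 2 moved it to -1.60.

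That difference rested on how reads were counted. With identical lines counted once, the cluster was at 0.45 (SE 0.24) and the gene span at 0.74 (SE 0.24), higher in the knockout. In the wild-type enriched libraries the 1698 Ltb reads held 400 distinct combinations of library, position and miRNA at 175 positions, so 76.4% were repeats, whereas 9.62% of the 52 knockout reads were. Whether a repeat was a copy of another molecule or a molecule of its own was not tested. The genotypes were not matched for depth, with 485 to 614 Ltb reads per wild-type enriched library and 12 to 25 per knockout one. At higher depth separate molecules can give identical lines more often, and how far this moved the sign was not tested. Per 1000000 miR-181 reads, wild-type libraries gave 2117, 2383 and 2512 and knockout libraries 1747, 1788 and 2418, and the groups overlapped. The wild-type libraries held 39831, 30381 and 23714 reads at the deleted hairpins and the knockout libraries 0. Those that carried miR-181 were kept in these totals, and the overlap without them was not computed. The means of the knockout minus those of wild type were -888 for all reads, 617 for identical lines once, -1220 for reads outside the deleted hairpins and -353 relative to miR-181 reads, each per 1000000.

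**Figure D5:**
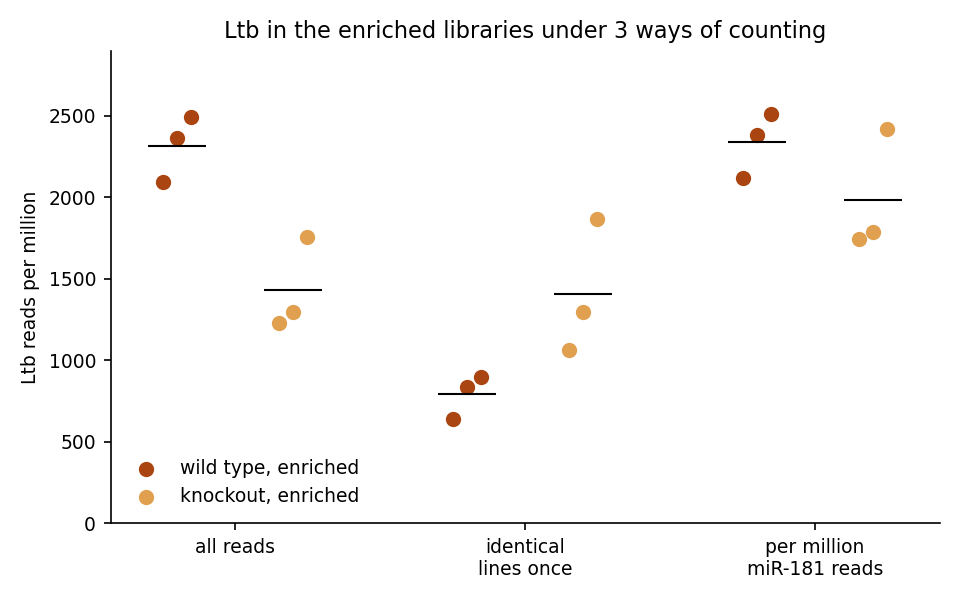
Ltb reads per 1000000 in the 3 wild-type and 3 knockout enriched libraries, counted from all reads, with identical lines once (per 1000000 distinct lines) and per 1000000 miR-181 reads; points are libraries and bars are means. Wild type lies above the knockout with all reads (2316 against 1428), below it with identical lines once (791 against 1407), and overlaps it per 1000000 miR-181 reads.

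In the Ago2 libraries, where Ltb was chosen, the fitted difference of the main cluster was -4.08 (SE 0.38), from 763 ± 180.5 to 46.4 ± 49.5 rpm (SD, n = 3 each). In that fit 25.5% of 251 clusters were called lower and 10.8% higher, and from this nothing is read about Ltb. Without knockout library 2 the difference was -5.48, and with identical lines counted once it was -3.18. Among miR-181 reads alone, with library sizes also taken from miR-181 reads, it was -1.78 (SE 0.77), over 22 clusters tested. That value is relative to the family's own total in each library. The knockout Ago2 libraries held 3 miR-181 reads in the whole Ltb span.

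Enrichment for miR-181 was set against the Ago2 IP in each genotype, with the Ago2 libraries on which Ltb was chosen. In wild type the mean of Ltb was 2.91-fold higher after enrichment. The main cluster was at 0.71 on the log2 scale (SE 0.22), where 30.0% of 1200 clusters were called higher and 26.3% lower by edgeR and the median was 0.35. The direction did not hold under every way of counting. With identical lines counted once the value was -0.34 (SE 0.17), and among miR-181 reads alone, scaled to those reads, it was -0.01 (SE 0.22). It was 0.60 without wild-type Ago2 library 2 and 0.37 without library 3. With library sizes alone the cluster was at 1.49 and the calls were 655 higher and 256 lower, in place of 360 and 316. Per 1000000 miR-181 reads Ltb held 2433 ± 579 before and 2338 ± 202 after enrichment (SD, n = 3 each), and the groups overlapped. Reads at the hairpins deleted in the knockout were kept in both totals.

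In the knockout the main cluster was at 3.15 (SE 0.54), where 49.4% of 162 clusters were called higher and 39.5% lower and the median was 0.92. It was at 4.52 with library sizes alone, with 96 calls higher and 33 lower in place of 80 and 64, and at 1.92 without knockout Ago2 library 1. The mean of the gene was 13.1-fold higher after enrichment. The difference between the enrichments, knockout minus wild type, was 3.55 for Ltb (SE 0.52, interaction term of edgeR). The term came from a separate fit over all 12 libraries with its own filter and scaling, so it is not 3.15 less 0.71. It contains the Ago2 difference on which Ltb was chosen. In that fit 53.5% of 608 clusters were called higher and 0.164% lower, and the median cluster stood at 2.67. DESeq2 put Ltb at 1.76 with a median of 0.79, and called 40 clusters higher and 18 lower. Without the filter on low counts edgeR called 2 clusters. Without wild-type Ago2 library 1 the edgeR value of Ltb was 2.18.

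By mean rpm the main Ltb cluster ranked 20th of all clusters in the wild-type Ago2 libraries and 16th in the wild-type enriched libraries. It ranked 29th in the knockout enriched libraries and 1368th in the knockout Ago2 libraries. For single miRNAs in the wild-type enriched libraries it ranked 13th for miR-181a, 23rd for miR-181b and 6th for miR-181c. In that group its neighbours in level were clusters in Pik3r1, a regulatory subunit of PI3 kinase (2569 ± 322), and Ptbp3, an RNA-binding protein (2229 ± 614), above it. Below it stood clusters in Prps2, an enzyme of nucleotide synthesis (2104 ± 468), and Atrx, a chromatin remodeller (1827 ± 188, all rpm, SD, n = 3). All 4 overlapped Ltb, at 2202 ± 194, within their SD. In the knockout enriched libraries those 4 clusters were at 3071 ± 641, 2675 ± 348, 2346 ± 179 and 4056 ± 1642 rpm, all above the 1252 ± 184 of Ltb (SD, n = 3 each).

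The 5 clusters whose log2 level followed that of Ltb most closely over the 12 libraries, among 695 with at least 100 reads, were in Themis (r = 0.979), Ezr (0.977), Tpr (0.973), Mtor (0.971) and Gm15564 (0.971). The 12 points fall in 4 groups and share library depth and miR-181 content, so these are descriptions. The cluster in Themis, a T cell gene needed for positive selection, went from 296 ± 87.4 to 4.93 ± 8.54 rpm in the Ago2 libraries. In the enriched ones it went from 787 ± 170 to 352 ± 126 (wild type to knockout, SD, n = 3 each). The whole span of Themis did not follow this cluster. It was at 4892 ± 404 and 5252 ± 294 rpm in the Ago2 libraries, and 3846 ± 244 and 3773 ± 34.1 in the enriched ones. Tpr, a nuclear pore protein, differed from Ltb in the enriched libraries, at 1283 ± 237 in wild type and 1662 ± 136 in the knockout.

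Ltb was the most contacted of 30 listed genes of the lymphotoxin and tumour necrosis factor pathway. Reads were found in 27 of them, with a median of 25.5 over all 30. Among the 7 ligands Ltb held 1968 reads, Tnf 13, Tnfsf11 12 and Lta, whose product pairs with lymphotoxin beta, 5. Of the 7 receptors, Ltbr, the receptor of the lymphotoxin complex, Cd40 and Tnfrsf13c held none, and Tnfrsf1a, a receptor for tumour necrosis factor, held 179, of which 29.6% were miR-181 reads. The gene neighbours of Ltb on chromosome 17 were also sparse, with 3 reads in Nfkbil1, 1 in Lst1 and 0 in Aif1. A low count can come from little RNA or few contacts, which cannot be told apart here.

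Few of the other pathway genes were deep enough to test. In the Ago2 libraries 5 of the 30 spans were tested, and besides Ltb only Nfkbia, the inhibitor of NF-kB, was called, where 7.00% of 1542 spans were called lower and 3.24% higher. Nfkbia went from 232 ± 63.2 to 16.3 ± 15 rpm (SD, n = 3 each), and fell by 3.66 on the log2 scale (SE 0.62, adjusted p = 2.59e-06 by edgeR). Of its 210 reads, 93.3% were miR-181 reads. With identical lines counted once Nfkbia did not pass the filter on low counts and was not tested. Tnfrsf14, a receptor of the ligand LIGHT, was at 0.67 (adjusted p = 0.353 by edgeR), Tnfrsf1a at 0.50 (adjusted p = 0.225) and Traf3, which restrains NIK, at -0.25 (adjusted p = 0.773). The median of all spans was 0.01.

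In the enriched libraries 5 spans were tested, and none besides Ltb was called, where 2.07% of 2025 spans were called lower and 1.38% higher. Nfkbia, at 206 ± 60.6 and 96.6 ± 105 rpm (SD, n = 3 each), gave -0.92 (SE 0.67, adjusted p = 0.540 by edgeR). The kinase gene Ikbkb gave -0.63 (adjusted p = 0.598), the adaptor gene Traf6 gave 0.58 (adjusted p = 0.770) and Nfkb1, which encodes the p50 precursor, gave -2.16 (SE 0.80, adjusted p = 0.144), all by edgeR. Without the filter on low counts Nfkb1 was also called, at -2.74 (adjusted p = 0.0286 by edgeR). In that fit 225 of 11905 spans were called lower and 14 higher, and the median span stood at -1.30.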

How the data were processed

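The authors deposited read counts as 24 files for 12 libraries, neither scaled nor pooled, in which every line stands for 1 chimeric read and gives a 1-nt position, a strand and a miRNA. The submitters' processing notes name Bowtie2 2.4.5, SAMtools 1.11, STAR 2.7.10, UMI-tools 1.1.1, bedtools 2.30.0 and the builds mm10 and GRCm38.p6; the role of each tool is not given in the sources used here. Libraries were sequenced as paired reads of 150 nt, per the labels.

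Reads of all libraries on the same strand were joined into clusters where neighbours lay at most 20 nt apart. Counts per cluster and per protein-coding span were tested with edgeR 4.0.16 (TMM, quasi-likelihood test, filterByExpr keeping features from a count of 10) under R 4.3.3, calling an adjusted p up to 0.05 over all features. Pairwise fits used only their groups, and the interaction all 12 libraries. Alternatives included DESeq2 1.42.0. The 95% intervals used Python 3.11.15 with scipy 1.17.1. Likeness is Pearson's r of log2(rpm + 10). Reads in several spans (5371) stayed out of span counts.

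The named genes were Ltb, the 5 most alike clusters, the 4 neighbours in level, and fixed pathway, neighbour and marker lists. These were chosen with earlier results of these data known.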

Additional observations from a re-analysis of the deposited data

Results flagged for a closer look

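The fitted effect of the enrichment on the main Ltb cluster was larger in the knockout than in wild type, by 3.55 on the log2 scale (SE 0.52, interaction term of edgeR). The Ago2 libraries of this difference are those on which Ltb was chosen, so the value is a description. That fit took in all 12 libraries with its own filter and scaling, so 3.55 is not the difference of the pairwise values, 3.15 and 0.71. The median of its 608 clusters was 2.67. Among miR-181 reads alone, scaled to those reads, the Ltb value was 2.07, and the median of the 106 clusters tested was 1.59. Groups of 3 libraries are too small for a test of outlying samples, and none was made.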

How the results depend on the processing

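Of 126 alternative values for 12 results, 112 were labelled the same, which for Ltb describes the fits and is no independent test. For fits the label means the same direction and side of the threshold. For mean rpm it means direction alone, for shares a move within the SD, and for pathway calls a similar count. Counting identical lines once turned the genotype difference in the enriched libraries (cluster 0.45, gene span 0.74, mean rpm 617) and the wild-type enrichment (-0.34), and moved the pathway calls in the Ago2 libraries to 1 (Ltb, with Nfkbia not tested), the miR-181a share to 76.3%, the main-cluster share to 83.1% and the wild-type Ago2 miR-181 share to 90.7%. The single pathway call in the enriched libraries, Ltb, then lay on the other side, although its unchanged count is among the 112. The alternatives for the latter pair of shares were chosen after seeing the data. Among miR-181 reads alone, scaled to those reads, the wild-type enrichment was -0.01 and the Ago2 difference -1.78, past no threshold. The knockout enrichment could not be fitted for Ltb there. Without the filter on low counts the interaction was 1.81, past no threshold, and the pathway calls in the enriched libraries were 2. The cause was not tested, and counts of identical lines once were not matched for depth.

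Leaving out 1 library in turn gave -1.60 to -0.97 (genotypes, enriched), -5.48 to -3.67 (genotypes, Ago2), 0.37 to 1.0 (enrichment, wild type), 1.92 to 4.25 (enrichment, knockout), 2.18 to 3.93 (interaction) and -1.39 to -0.89 (gene span). Whether sample numbers pair libraries was not settled. Correlations of same-numbered libraries ran from -0.09 to 0.17, above 0.1 in 4 of 12. Between the Ago2 and enriched libraries of wild type they were 0.170, 0.075 and 0.068, against -0.104 to 0.014 for unlike numbers. In the knockout they were -0.026, 0.126 and 0.127, against -0.168 to 0.043. The main fits were not paired. With the replicate number as a block the values were -0.99, -4.06, 0.70, 3.16, 3.54 and -1.04, and no call on Ltb changed.

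Counts of calls moved most with the features tested. The 132 calls between genotypes in the enriched libraries were 1093 without a filter, 70 over gene spans and 80 among miR-181 reads; the 91 in the Ago2 libraries were 206, 158 and 4. The Ago2 calls split into 27 higher and 64 lower, which became 43 and 62 under library sizes alone. DESeq2 gave 8 and 59. The 676 of the wild-type enrichment were 2091, 1023 and 219, and 435 with identical lines once. The 144 of the knockout enrichment were 333 without a filter. The 326 of the interaction were 58 with DESeq2, 2 without a filter, 197 with identical lines once, 38 over gene spans, 20 among miR-181 reads and 167 with knockout libraries 2 and 3 as 1 sample. The 70 over gene spans were 46 with DESeq2 and 239 without a filter. Library sizes alone moved the median cluster from -0.38 to -0.26, 0.35 to 1.1, 0.92 to 2.29 and 2.67 to 2.20. The knockout enriched libraries, with 12 to 25 Ltb reads each, limit every value that rests on them.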
